A study of Mus musculus with 9 samples.

Results

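The genes described are those of the mouse proteasome, the protease complex that degrades ubiquitin-tagged proteins, in islets of Langerhans, the endocrine tissue of the pancreas. They were chosen by symbol, as rows of the count table named Psma, Psmb, Psmc, Psmd, Psme, Psmf or Psmg with a number, that had at least 10 counts in at least 3 libraries. Of 49 such symbols 47 qualified, and all 47 were among the 16826 genes tested. Both symbols left out, Psma8, a core subunit of the testis, and Psmb11, a core subunit of the thymus, had 4 and 3 counts over all 9 libraries.

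The study sequenced RNA from islets at 12 weeks of age in 3 genotypes, with 3 libraries each. The db/db group was homozygous and the db/+ group heterozygous for Lepr db, a mutant allele of the leptin receptor gene that makes homozygous mice obese and diabetic, and the third group was wild type (WT). All groups had the same strain label. The labels state neither sex nor pooling, nor that libraries came from separate animals, and the p values therefore cover only variation among these 9 libraries, which may be technical. The db mutation alters the splicing of Lepr, and a gene-level count is therefore no check of the genotype labels.

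The core particle of the proteasome is a barrel of 4 rings. Alpha subunits, encoded by Psma genes, form the outer rings, and beta subunits, encoded by Psmb genes, form the inner rings. Only Psmb5, Psmb6 and Psmb7 of the constitutive beta subunits carry active sites. Interferon induces the replacement subunits Psmb8, Psmb9 and Psmb10, which take the places of Psmb5, Psmb6 and Psmb7 in the immunoproteasome and favour peptides that bind class I molecules. It also induces Psme1 and Psme2, the subunits of the activator PA28. The regulatory particle caps the core, with ATPases (Psmc genes) that unfold substrates and non-ATPase subunits (Psmd genes) that bind and trim ubiquitin chains. Beta cells make large amounts of secreted protein, and the proteasome clears misfolded protein exported from their endoplasmic reticulum.

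The libraries held between 8860024 and 11734886 counts. Levels are CPM, counts scaled to the TMM-normalised library size, which do not correct for gene length, and a total of 3 counts is 0.238 to 0.412 CPM. Fold changes are on the log2 scale ± SE, and a gene is said to have risen or fallen only where edgeR's quasi-likelihood test, adjusted over all tested genes by the Benjamini-Hochberg method, gave a p under 0.05. Ins2 averaged 51590 CPM in db/db, 50405 CPM in db/+ and 50306 CPM in WT, so islet tissue was present in every group. Of 10 beta cell markers, however, 7 fell and 1 rose in db/db relative to both WT and db/+ (median log2 fold changes of -1.32 and -1.38). Summed markers of pancreatic acinar cells ranged over 18819 to 52459 CPM in db/db, 15599 to 35530 CPM in db/+ and 6752 to 12704 CPM in WT. Genes that overlap ribosomal RNA took 18.6%, 13.9% and 0.769% of the counts of the db/db libraries, 0.390% to 0.489% in db/+ and 2.91% to 3.20% in WT. The sum of 4 Y-linked genes was 176, 1.11 and 0.108 CPM in db/db, 373 to 417 CPM in db/+ and 219 to 343 CPM in WT, so the sexes were not balanced between genotypes. Xist, which only cells with an inactive X chromosome express, had 308, 948 and 858 CPM in db/db, at most 0.506 CPM in db/+, against 565, 0.722 and 596 CPM in WT. Both Xist and Y-linked counts were thus high in db/db 1, WT 1 and WT 3, so these libraries need not stand for single animals. The first letter of the sample titles also follows genotype: all db/db libraries share one letter with WT 3, and all db/+ libraries share another with WT 1 and WT 2.

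In db/db islets 16 of the 47 proteasome genes rose relative to WT and 3 fell, while 28 did not pass the test. Of all tested genes 41.7% passed the test in one direction or the other. The genes that rose belonged to the core and regulatory particles, among them the catalytic subunits Psmb5, Psmb6 and Psmb7, and rose by 1.17-fold to 1.49-fold. The genes that fell were Psmb9 of the immunoproteasome, the activator Psme3 and the inhibitor Psmf1. Separately, 21.8% of all tested genes rose and 19.9% fell, against 34.0% and 6.38% of the proteasome genes. The median log2 fold change was 0.18 over the proteasome genes and 0.01 over all tested genes. Every db/db library lay above every WT library for 17 proteasome genes and below for 3, beside 26.2% and 25.3% of all tested genes. Against db/+, 13 proteasome genes rose and 2 fell in db/db, beside 40.3% of all tested genes that passed (20.6% higher and 19.7% lower). There the median was again 0.18 over the proteasome genes, beside 0.01 over all tested genes, and 16 genes lay above and 3 below without overlap, as did 26.2% and 26.0% of all tested genes. Both db/db comparisons use the same db/db libraries. In bulk islets, more cells of a type and more RNA per cell cannot be told apart.

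**Figure D1:**
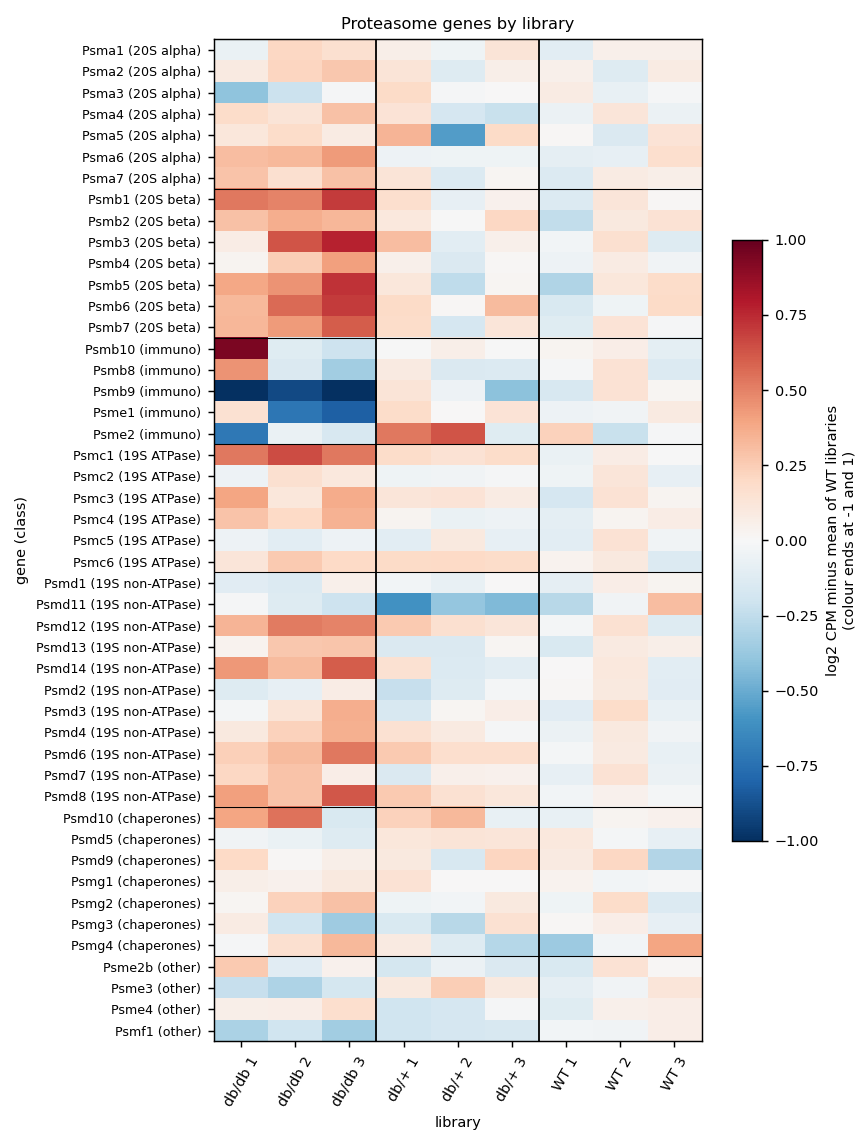
Proteasome genes by library. Colour gives the log2 CPM of each of the 47 genes (rows, grouped by class) in each library (columns) minus the mean of the WT libraries, and colours end at -1 and 1. The constitutive beta rows are red in the db/db columns, Psmb9 is blue in all 3, and Psmb8 and Psmb10 are red in db/db 1 only.

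The size of these counts depended on how the libraries were scaled. With library totals in place of TMM the median over all tested genes moved to -0.22 in db/db against WT. Then 2 proteasome genes rose and 6 fell, beside 12.9% and 31.6% of all tested genes. The median over the proteasome genes stood 0.18 above that of all tested genes under TMM, and also 0.18 above it with library totals. Rescaling libraries shifts the fold changes of all genes by about the same amount, so this match is no separate test. With a correction for transcript length the difference of these medians was 0.10. There 7 proteasome genes rose and 5 fell, beside 20.1% and 24.8% of the 14664 genes of that fit. Between libraries of one title letter, all 16 genes that rose were higher in each db/db library than in WT 3, and all 3 that fell were lower. These genes were called with WT 3 among the WT libraries, so that count is a description and no separate test of the title letter. Without db/db 3 and without WT 1, 10 and 9 of the 47 proteasome genes rose against WT, beside 18.0% and 18.4% of all tested genes. Library db/db 3 was the highest of the db/db libraries for 12 of the 16 genes that rose and for 25 of all 47 proteasome genes. It had the least ribosomal RNA overlap of the db/db libraries. The part of these differences in the results was not tested.

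Among the classes, the constitutive beta subunits had the highest median fold change. In db/db 6 of 7 (85.7%) rose relative to WT and 5 of 7 (71.4%) rose relative to db/+, beside 21.8% and 20.6% of all tested genes. The medians of the class were 0.52 and 0.41. The summed level of these subunits was 320.1, 351.1 and 388.7 CPM in db/db, 290.7, 248.7 and 286.4 CPM in db/+, against 243.8, 281.9 and 273.4 CPM in WT. Each db/db library thus lay above all of the other 6.

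Among the catalytic genes, Psmb6 (chromosome 11, 70525324 to 70527858, mm10) encodes the subunit that cuts after acidic residues. It stood at 46.8, 55.2 and 60.8 CPM in db/db, 42.8, 37.7 and 46.6 CPM in db/+, against 33.7, 36.3 and 42.7 CPM in WT. All db/db libraries were above all WT libraries, and db/db 1 lay just above db/+ 3. Psmb6 rose by 0.54 ± 0.12 relative to WT (adjusted p = 0.00264) and by 0.36 ± 0.12 relative to db/+ (adjusted p = 0.0250). Psmb7 (chromosome 2, 38588046 to 38643952), which encodes the subunit that cuts after basic residues, stood at 45.8, 48.8 and 55.4 CPM in db/db, 41.2, 32.4 and 39.6 CPM in db/+, against 33.5, 39.9 and 36.1 CPM in WT. Here the db/db libraries overlapped neither other group. Psmb7 rose by 0.46 ± 0.11 relative to WT (adjusted p = 0.00473) and by 0.41 ± 0.11 relative to db/+ (adjusted p = 0.00956). Psmb5 (chromosome 14, 54614120 to 54617995), which encodes the subunit that cuts after hydrophobic residues and is the main target of bortezomib, was the least abundant of the constitutive catalytic genes, per length as well as in CPM. It had 9.61, 10.03 and 12.1 CPM in db/db, 7.92, 6.16 and 7.42 CPM in db/+, against 5.95, 7.95 and 8.33 CPM in WT, with no overlap between db/db and the other groups. Psmb5 rose by 0.52 ± 0.18 relative to WT (adjusted p = 0.0307) and by 0.56 ± 0.18 relative to db/+ (adjusted p = 0.0215).

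Single libraries carried part of these calls. The adjusted p of Psmb5 against WT was 0.0504 without db/db 2, 0.137 without db/db 3 and 0.127 without WT 1, and against db/+ it was 0.098 without db/db 3 and 0.0933 without db/+ 2. For Psmb6 against db/+ it was 0.0656 without db/db 2, 0.121 without db/db 3, 0.0599 without db/+ 1 and 0.118 without db/+ 2. For Psmb7 against db/+ it was 0.0511 without db/db 3 and 0.0548 without db/+ 2. The calls of Psmb6 and Psmb7 against WT held with any single library left out. They did not hold with a term for Y-linked counts (0.29 and 0.32, adjusted p = 0.20 and 0.164), with a term for the title letter (adjusted p = 0.120 and 0.0519) or with library totals (adjusted p = 0.0691 and 0.158). The call of Psmb5 against WT was lost under the same 3 alternatives (adjusted p = 0.348, 0.338 and 0.217). It was also lost by the DESeq2 Wald test (0.0526), with an acinar term (0.0673) and with the length correction (0.171). Library totals without genes that overlap ribosomal RNA lost it as well (0.0604). The processed pseudogene Psmb6-ps2 held 69 to 95 counts in each library, so some Psmb6 reads may have been counted there.

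The promoters of Psmb5 and Psmb6 are shown because each holds a core of the antioxidant response element, TGACNNNGC, the motif that the transcription factor NRF1 (Nfe2l1) binds at proteasome genes. Capitals mark the match, at -47 in Psmb5 and -9 in Psmb6 from the annotated start, both on the strand of the gene. The windows are chr14:54617946-54618245 on the minus strand and chr11:70525107-70525406 on the plus strand, from RefSeq on GRCm38.p6, and run from 250 bases before to 50 bases after the start.
Psmb5: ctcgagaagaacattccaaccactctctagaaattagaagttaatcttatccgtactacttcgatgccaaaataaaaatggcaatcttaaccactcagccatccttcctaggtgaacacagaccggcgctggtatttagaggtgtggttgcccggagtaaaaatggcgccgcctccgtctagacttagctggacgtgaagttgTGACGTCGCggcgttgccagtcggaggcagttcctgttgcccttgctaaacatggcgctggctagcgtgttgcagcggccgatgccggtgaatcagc
Psmb6: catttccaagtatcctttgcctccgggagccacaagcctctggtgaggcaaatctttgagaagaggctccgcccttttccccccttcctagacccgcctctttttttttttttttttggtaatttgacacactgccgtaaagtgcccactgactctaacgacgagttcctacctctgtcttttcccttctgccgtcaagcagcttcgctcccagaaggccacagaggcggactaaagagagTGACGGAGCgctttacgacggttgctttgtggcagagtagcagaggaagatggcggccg
The same letters stood in 6 of 40 proteasome promoters (15%), those of Psmb5, Psmb6, Psmc6, Psmd12, Psmd9 and Psme4, beside 12.5% of 27025 RefSeq promoters of the same length. A match describes the letters only. The table had no promoter for Psmb1, Psmb2 and Psmb7, among others.

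The remaining beta subunits build the ring and carry no active site. Psmb1 (chromosome 17, 15475721 to 15498276) had the smallest adjusted p of the class. It stood at 74.2, 72.6 and 83.3 CPM in db/db, 57.8, 48.6 and 52.9 CPM in db/+, against 46.7, 55.9 and 51.9 CPM in WT. The db/db libraries lay well apart from both other groups. Psmb1 rose by 0.58 ± 0.09 relative to WT (adjusted p = 2.81e-04) and by 0.53 ± 0.09 relative to db/+ (adjusted p = 5.32e-04). The call against WT held under every alternative run. That against db/+ was lost with library totals (adjusted p = 0.0530) and a title letter term (0.0784). Psmb2 (0.32 ± 0.10, adjusted p = 0.0238) and Psmb3 (0.52 ± 0.19, adjusted p = 0.0396) also rose relative to WT but lost the call without db/db 2, db/db 3 or WT 1, and Psmb3 also without WT 3 or db/+ 3. Psmb4, the most abundant beta subunit per length, measured 87.8, 102 and 115 CPM in db/db, 89.3, 77.8 and 86.8 CPM in db/+, against 83.2, 91.4 and 84.2 CPM in WT. Library db/db 1 lay within the range of the other groups. Its difference was 0.24 ± 0.10 against WT (adjusted p = 0.0602, and 0.00828 without db/db 1), and it rose by 0.26 ± 0.09 against db/+ (adjusted p = 0.0391, but between 0.0511 and 0.192 with any single library other than db/db 1, db/+ 1 or WT 1 left out).

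**Figure D2:**
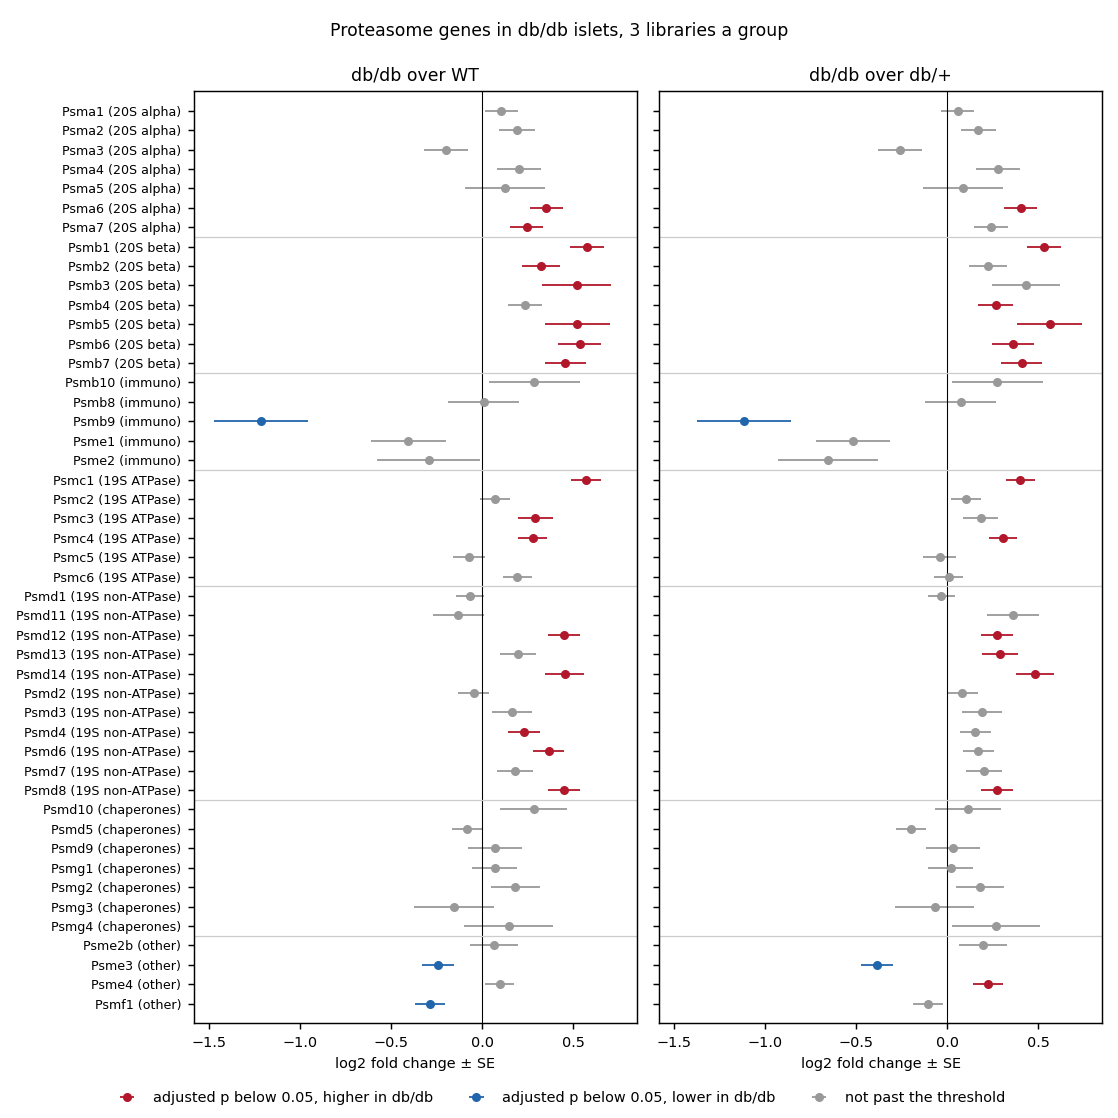
Log2 fold changes ± SE of the 47 proteasome genes (rows, by class) for db/db over WT on the left and db/db over db/+ on the right, each from 3 libraries a group. Red points rose and blue points fell at an adjusted p below 0.05, and the constitutive beta subunits hold 6 of the 16 red points on the left.

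In the alpha ring, 2 of 7 subunits rose in db/db relative to WT (median 0.19) and 1 of 7 rose relative to db/+ (median 0.17), which is 28.6% and 14.3%, near the 21.8% and 20.6% of all tested genes. Psma6 stood at 44.3, 44.7 and 48.1 CPM in db/db, 34.4, 34.6 and 34.8 CPM in db/+, against 33.6, 33.8 and 40.2 CPM in WT. The lowest db/db library was above the highest of either other group. Psma6 rose by 0.35 ± 0.09 relative to WT (adjusted p = 0.00686) and by 0.40 ± 0.09 relative to db/+ (adjusted p = 0.00308). Both calls were lost with library totals (adjusted p = 0.418 and 0.277), a Y-linked term (0.139 and 0.117) and a title letter term (0.247 and 0.550). The call against WT was also lost with the length correction (0.222) and an acinar term (0.0624). Psma7 rose by 0.24 ± 0.09 relative to WT (adjusted p = 0.0462) at the edge of the threshold, and the call was lost with any of db/db 1, db/db 3, db/+ 3 or a WT library left out (adjusted p between 0.0527 and 0.18 in those fits). Psma3 did not pass the test, at 15.1, 17.2 and 19.8 CPM in db/db, 22.8, 19.8 and 19.99 CPM in db/+, against 21.2, 18.96 and 19.8 CPM in WT (-0.20 ± 0.12 against WT, adjusted p = 0.214). The summed level of the alpha ring was 252 ± 12.1 CPM in db/db, 224 ± 15.3 CPM in db/+ and 223 ± 9.57 CPM in WT (SD, n = 3 each).

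None of the 5 immunoproteasome genes rose in db/db, and Psmb9 fell in both db/db comparisons. The share that fell was thus 20% in each, near the 19.9% (against WT) and 19.7% (against db/+) of all tested genes. The shares of all tested genes that rose were 21.8% and 20.6%. The medians of the 5 immunoproteasome genes were -0.29 against WT and -0.52 against db/+. Psmb9 (chromosome 17, 34182030 to 34187330), which replaces Psmb6, stood at 2.47, 2.85 and 1.62 CPM in db/db, 5.82, 5.15 and 3.997 CPM in db/+, against 4.76, 5.87 and 5.38 CPM in WT. These are small numbers, 18, 23 and 15 counts in db/db, 72, 61 and 49 counts in db/+, and 60, 65 and 53 counts in WT, and every db/db library was lower than any other. Psmb9 fell to 0.431 of the WT level (-1.21 ± 0.26, adjusted p = 0.00202) and to 0.461 of the db/+ level (-1.12 ± 0.26, adjusted p = 0.00364). Leaving out any single library kept both calls, with adjusted p between 0.00232 and 0.0122 against WT and between 0.00392 and 0.0217 against db/+. With a term for Y-linked counts the adjusted p was 0.0876 against WT and 0.164 against db/+. With a term for acinar markers it was 0.181 against WT, and with a term for the title letter 0.119 against db/+.

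In the other replacement subunits library db/db 1 stood apart. Psmb10 (chromosome 8, 105935728 to 105938392), which replaces Psmb7, stood at 18.4, 8.795 and 8.30 CPM in db/db, 9.54, 9.96 and 9.54 CPM in db/+, against 9.76, 10.02 and 8.94 CPM in WT. Psmb8 (chromosome 17, 34198195 to 34201454), which replaces Psmb5, stood at 12.3, 8.18 and 7.11 CPM in db/db, 9.62, 8.18 and 8.24 CPM in db/+, against 8.97, 10.02 and 8.23 CPM in WT. For both genes db/db 1 was the highest of all libraries and db/db 3 the lowest. Neither passed the test: the difference against WT was 0.29 ± 0.25 for Psmb10 (adjusted p = 0.384) and 0.01 ± 0.20 for Psmb8 (adjusted p = 0.976), and -0.17 and -0.25 without db/db 1 (adjusted p = 0.432 and 0.283). With a term for Y-linked counts, which db/db 1 alone of its group carried, Psmb10 rose by 1.02 against WT (adjusted p = 0.000961) and by 1.11 against db/+ (adjusted p = 0.000971).

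Of the PA28 pair, Psme1 (chromosome 14, 55578494 to 55581527) measured 20.03, 10.9 and 10.2 CPM in db/db, 20.5, 18.1 and 19.7 CPM in db/+, against 17.4, 17.5 and 19.1 CPM in WT. Libraries db/db 2 and db/db 3 stood clear below every other library, and db/db 1 did not. The difference was -0.40 ± 0.21 against WT (adjusted p = 0.135) and -0.52 ± 0.20 against db/+ (adjusted p = 0.0618). Without db/db 1, Psme1 fell by 0.77 against WT (adjusted p = 4.56e-04) and by 0.87 against db/+ (adjusted p = 1.51e-04). Its partner Psme2 (chromosome 14, 55587440 to 55591101, 5912 bases from Psme1) had only 2.06, 3.22 and 3.02 CPM in db/db, 4.85, 5.23 and 3.10 CPM in db/+, against 3.97, 2.89 and 3.35 CPM in WT. The groups overlapped, and it passed neither test (-0.29 ± 0.28 and -0.66 ± 0.27, adjusted p = 0.426 and 0.0718), though against db/+ the adjusted p was 0.0297 without db/+ 3. Psme2b, a near copy of Psme2, held more counts than Psme2 in every library, so the counts of this pair are uncertain.

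**Figure D3:**
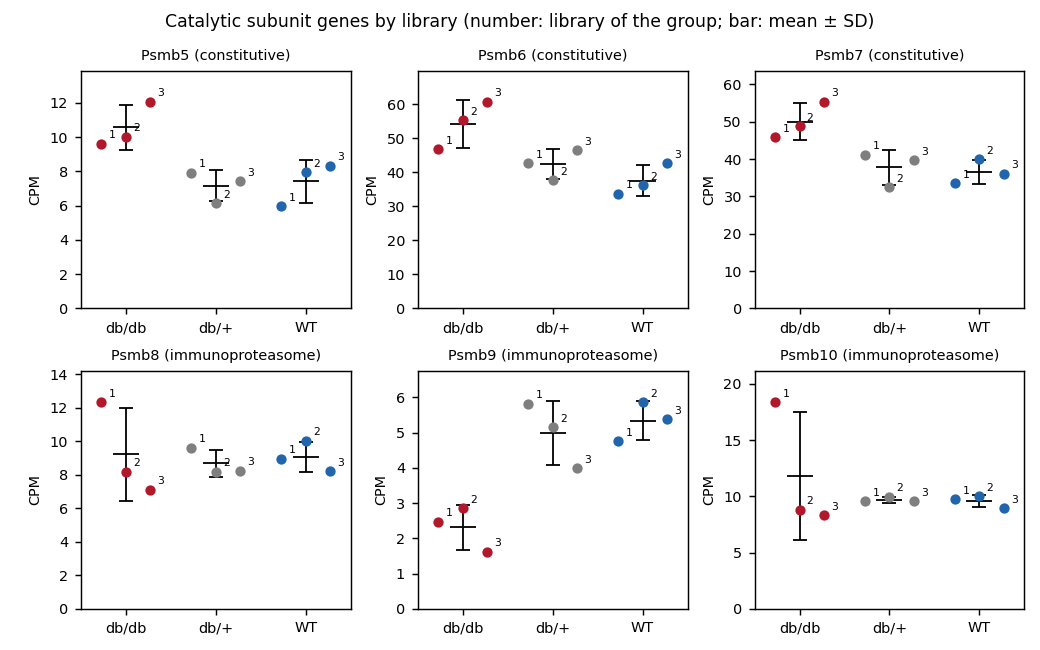
CPM of the catalytic subunit genes in each library, with constitutive genes above and the immunoproteasome genes that replace them below. Points are libraries numbered within their group and bars are mean ± SD. The db/db points of Psmb5, Psmb6 and Psmb7 lie above both other groups, those of Psmb9 lie below, and db/db 1 alone is high for Psmb8 and Psmb10.

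Ratios of counts within a library do not depend on its scaling. The ratio of Psmb9 to Psmb6 was 0.0528, 0.0516 and 0.0266 in db/db, 0.136, 0.136 and 0.0858 in db/+, and 0.141, 0.162 and 0.126 in WT. It averaged 0.0437 ± 0.0148 in db/db, 0.119 ± 0.0291 in db/+ and 0.143 ± 0.0178 in WT (SD, n = 3 each), with no overlap of db/db and the rest. The ratio of Psmb8 to Psmb5 was 1.29, 0.815 and 0.589 in db/db, 1.21, 1.33 and 1.11 in db/+, and 1.51, 1.26 and 0.988 in WT. The ratio of Psmb10 to Psmb7 was 0.401, 0.180 and 0.150 in db/db, 0.231, 0.307 and 0.241 in db/+, and 0.291, 0.251 and 0.248 in WT. For both of these ratios db/db 2 and db/db 3 were the lowest of all libraries, and db/db 1 was not. Immunoproteasome genes made up 24.5%, 14.8% and 11.7% of the counts of the 6 catalytic genes in db/db, 21.4%, 23.4% and 18.9% in db/+, and 24.3%, 23.5% and 20.6% in WT. Against its own class, Psmb9 was also low: its ratio to Psmb8 was 0.20, 0.348 and 0.227 in db/db, 0.605, 0.629 and 0.485 in db/+, and 0.531, 0.586 and 0.654 in WT. No test was run on these ratios.

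**Figure D4:**
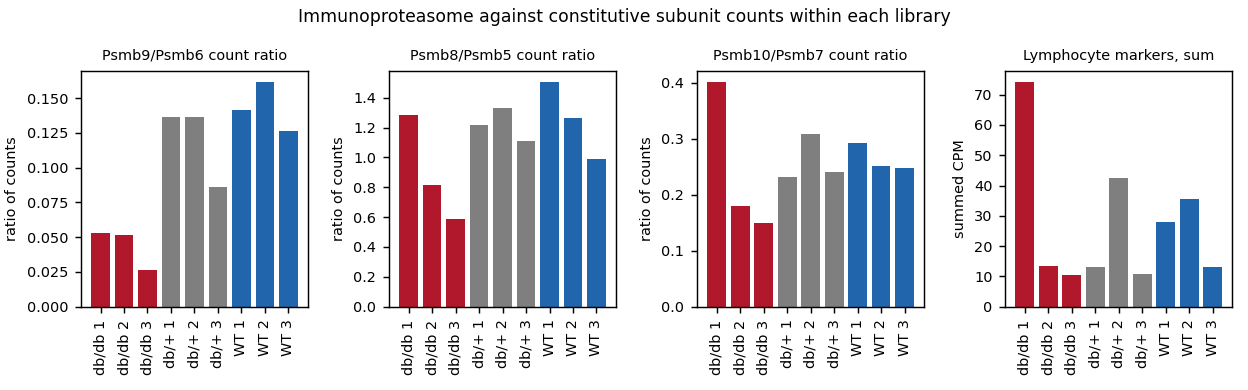
Ratios of counts within each library for Psmb9 to Psmb6, Psmb8 to Psmb5 and Psmb10 to Psmb7, and the summed CPM of 6 lymphocyte markers at the right. Bars are single libraries. The first ratio is at most 0.0528 in the db/db libraries and at least 0.0858 in the others. Library db/db 1 is the highest db/db library in the other 2 ratios, but for Psmb8 to Psmb5 it lies within the range of the other groups. For Psmb10 to Psmb7 and the lymphocyte markers it is the highest of all libraries.

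Immune cells express immunoproteasome genes strongly, and their markers were therefore summed by library. Library db/db 1 had the highest sum for lymphocytes and for macrophages, but neither set was high in that library alone. The next highest lymphocyte sums were those of db/+ 2 and WT 2, and the next highest macrophage sums those of the other db/db libraries. Of 13 lymphocyte markers 6 were tested and none passed the test in any comparison. Their sum was 74.2, 13.5 and 10.6 CPM in db/db, 13.0, 42.5 and 10.9 CPM in db/+, against 27.9, 35.5 and 13.0 CPM in WT. The log2 fold changes of the 6 ran from -1.17 to 1.06 in db/db against WT, with 4 above 0, and from -0.79 to 0.86 against db/+, with 5 above 0. Ms4a1, a marker of B cells and only 1 gene of this list, stood at 9.33, 0 and 0.216 CPM in db/db, 0.323, 6.16 and 0 CPM in db/+, against 3.25, 2.17 and 0.203 CPM in WT. Of 14 macrophage markers 4 rose and none fell in db/db relative to WT (28.6%, beside 21.8% of all tested genes), and 7 rose relative to db/+ (50%, beside 20.6%). Their sum was 282.8, 212.9 and 186.5 CPM in db/db, 148.4, 132.7 and 119.5 CPM in db/+, against 144.4, 146.7 and 118.2 CPM in WT, and the lowest db/db library stood above all the others. Other cell types moved with genotype as well. In each db/db comparison 7 of 11 markers of stellate cells and fibroblasts (63.6%) and 6 of 10 endothelial markers (60%) rose, and 7 of 10 beta cell markers (70%) fell, beside 19.9% of all tested genes that fell against WT and 19.7% against db/+. Of 19 acinar markers 11 rose against WT (57.9%) and 1 rose against db/+ (5.26%). The part of these cells in the proteasome results was not tested.

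Psmb9 lies 225 bases from Tap1, a peptide transporter gene of the class I pathway on the other strand, and Tap1 lies 969 bases from Psmb8. Tap1 measured 12.3, 9.29 and 10.1 CPM in db/db, 12.9, 15.4 and 10.9 CPM in db/+, against 12.1, 15.1 and 10.8 CPM in WT. The groups overlapped, and the difference was -0.26 ± 0.18 against WT (adjusted p = 0.247) and -0.31 ± 0.17 against db/+ (adjusted p = 0.178). The ratio of Psmb9 to Tap1 was 0.20, 0.307 and 0.160 in db/db, 0.450, 0.335 and 0.366 in db/+, and 0.392, 0.389 and 0.50 in WT, without overlap. The promoters below show what stands before Psmb9, Psmb8 and Psme1, the gene that fell and neighbours of its class. The windows are chr17:34187281-34187580 on the minus strand, chr17:34197945-34198244 on the plus strand and chr14:55578244-55578543 on the plus strand (RefSeq, GRCm38.p6). That of Psmb9 covers the whole gap to Tap1.
Psmb9: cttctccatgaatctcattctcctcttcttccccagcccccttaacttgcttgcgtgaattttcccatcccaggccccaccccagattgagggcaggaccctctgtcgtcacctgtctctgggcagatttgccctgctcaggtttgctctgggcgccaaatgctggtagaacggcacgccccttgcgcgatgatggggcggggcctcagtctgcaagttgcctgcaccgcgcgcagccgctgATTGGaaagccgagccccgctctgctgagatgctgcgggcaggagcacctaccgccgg
Psmb8: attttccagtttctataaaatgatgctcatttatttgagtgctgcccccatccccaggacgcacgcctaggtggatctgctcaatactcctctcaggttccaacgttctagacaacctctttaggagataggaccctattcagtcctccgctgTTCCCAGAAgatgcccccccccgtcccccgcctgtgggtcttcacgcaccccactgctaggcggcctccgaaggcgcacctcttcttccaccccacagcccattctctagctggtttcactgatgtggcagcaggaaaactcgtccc
Psme1: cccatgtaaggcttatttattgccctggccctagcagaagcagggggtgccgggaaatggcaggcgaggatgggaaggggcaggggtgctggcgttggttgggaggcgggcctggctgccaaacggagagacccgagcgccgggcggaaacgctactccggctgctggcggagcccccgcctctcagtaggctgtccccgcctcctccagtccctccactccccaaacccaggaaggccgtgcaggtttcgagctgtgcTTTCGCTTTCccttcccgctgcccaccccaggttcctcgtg
Capitals mark a CCAAT box on the reverse strand at -8 in Psmb9, a gamma-activated site, TTCNNNGAA, at -97 in Psmb8, and the core of the interferon-stimulated response element on the reverse strand at 10 in Psme1. Both strands were searched, TTCNNNGAA reads the same on each, and no match overlapped one of another motif. The interferon motif stood in 5 of 40 proteasome promoters (12.5%) and 3.49% of all promoters, those of Psmb3, Psme1, Psmd4, Psmd9 and Psmg4. The gamma-activated site stood in 3 of 40 (7.5%) and 8.47% of all. In Psmb9 neither motif was found in this window.

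Some genes of the regulatory particle rose. Of its 6 ATPases, 3 rose relative to WT (median 0.24) and 2 rose relative to db/+ (median 0.14). These are 50% and 33.3% of a small class, beside 21.8% and 20.6% of all tested genes. Psmc1 (chromosome 12, 100110202 to 100123364), an ATPase whose tail helps open the gate of the core, stood at 48.9, 53.4 and 48.9 CPM in db/db, 38.6, 37.5 and 38.4 CPM in db/+, against 32.3, 35.7 and 33.8 CPM in WT. The groups were ordered without overlap, with db/+ between db/db and WT. Psmc1 rose by 0.57 ± 0.08 relative to WT (adjusted p = 9.07e-05) and by 0.40 ± 0.08 relative to db/+ (adjusted p = 0.00140), while the difference of db/+ from WT was 0.17 ± 0.08 (adjusted p = 0.332). Its call against WT held under every alternative run. That against db/+ was lost with library totals (adjusted p = 0.260), a Y-linked term (0.0577) and a title letter term (0.100). Psmc4 rose by 0.28 ± 0.08 relative to WT (adjusted p = 0.0110, but 0.0525 without db/db 3 and 0.0508 without WT 1) and by 0.31 ± 0.08 relative to db/+ (adjusted p = 0.00627). Psmc3 rose by 0.29 ± 0.10 relative to WT (adjusted p = 0.0270), a call that was lost without db/db 1, db/db 3, WT 1 or WT 3. Psmc5 had overlapping groups, at 50.4, 48.3 and 50.2 CPM in db/db, 48.4, 55.9 and 49.1 CPM in db/+, against 48.5, 57.4 and 50.7 CPM in WT (-0.07 against WT, adjusted p = 0.544).

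The promoter of Psmc1, the gene with the smallest adjusted p, is chr12:100109952-100110251 on the plus strand (RefSeq, GRCm38.p6).
Psmc1: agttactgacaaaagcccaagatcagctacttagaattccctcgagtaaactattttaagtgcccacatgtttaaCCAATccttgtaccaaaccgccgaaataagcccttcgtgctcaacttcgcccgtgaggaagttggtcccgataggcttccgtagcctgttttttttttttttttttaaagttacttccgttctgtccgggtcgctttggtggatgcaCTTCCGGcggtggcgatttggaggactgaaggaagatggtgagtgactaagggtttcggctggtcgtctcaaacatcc
Capitals mark a CCAAT box at -175 and the core of an ETS factor site, CCGGAAG, on the reverse strand at -28. The ETS core stood in 13 of 40 proteasome promoters (32.5%), none of them of the immunoproteasome, beside 9.12% of all promoters. The others with it were Psmc2, Psmc6, Psmd2, Psmd4, Psmd6, Psmd11, Psmd12, Psmd13, Psme3, Psme4, Psmg1 and Psmg3. The CCAAT box stood in 13 of 40 (32.5%) and 37.9% of all.

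Of 11 non-ATPase subunits 5 (45.5%) rose in db/db relative to WT and 4 (36.4%) rose relative to db/+, beside 21.8% and 20.6% of all tested genes. The medians of the class were 0.20 in both. Psmd8, a subunit of the lid, measured 79.2, 72.6 and 91.7 CPM in db/db, 71.3, 66.1 and 64.2 CPM in db/+, against 58.3, 61.3 and 58.8 CPM in WT. All db/db libraries lay above all others, and all db/+ libraries above all WT libraries. Psmd8 rose by 0.45 ± 0.09 relative to WT (adjusted p = 0.00123) and by 0.27 ± 0.09 relative to db/+ (adjusted p = 0.0241, and 0.125 without db/db 3, 0.080 without db/+ 2 and 0.0913 without db/+ 3). Psmd14, the deubiquitinase that removes ubiquitin chains before degradation, stood at 44.7, 41.2 and 50.4 CPM in db/db, 36.8, 30.2 and 30.8 CPM in db/+, against 33.2, 35.6 and 30.9 CPM in WT. It rose by 0.45 ± 0.11 relative to WT (adjusted p = 0.00390) and by 0.48 ± 0.11 relative to db/+ (adjusted p = 0.00276), with no overlap of db/db and the rest. Both calls of Psmd14 were lost with library totals (adjusted p = 0.173 and 0.137) and a Y-linked term (0.0723 and 0.0776). The call against db/+ was also lost with a title letter term (0.0518). The lid subunits Psmd12 (0.45 ± 0.09, adjusted p = 0.00128) and Psmd6 (0.37 ± 0.09, adjusted p = 0.00377) and the ubiquitin receptor Psmd4 (0.23 ± 0.09, adjusted p = 0.0461) also rose relative to WT. The call of Psmd4 was lost with any single library left out except db/db 1 or WT 2.

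The scaffold subunits of the base, Psmd1 and Psmd2, did not pass the test. Psmd1 measured 99.6, 98.1 and 112 CPM in db/db, 106, 103 and 108 CPM in db/+, against 101.5, 113 and 110 CPM in WT (-0.07 against WT, adjusted p = 0.508). Psmd2 stood at 110, 113 and 126 CPM in db/db, 102, 109 and 118 CPM in db/+, against 121, 128 and 111 CPM in WT (-0.05 against WT, adjusted p = 0.699). Both had overlapping groups, and Psmd1 shares its locus with Htr2b. The summed regulatory particle was 1118 ± 61.0 CPM in db/db, 995 ± 4.64 CPM in db/+ and 980 ± 59.3 CPM in WT (SD, n = 3 each), and the summed constitutive core 605 ± 46.4, 499 ± 38.0 and 489 ± 27.6 CPM in the same groups.

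Activators outside the immunoproteasome and the inhibitor PI31 gave mixed results. Psmf1, which encodes PI31, an inhibitor of the core in vitro, measured 34.9, 37.8 and 34.2 CPM in db/db, 37.7, 38.6 and 38.7 CPM in db/+, against 42.5, 42.3 and 45.4 CPM in WT. Both db/db and db/+ lay below every WT library. Psmf1 fell by 0.28 ± 0.08 relative to WT in db/db (adjusted p = 0.0128, and 0.054 without db/db 3), with -0.11 against db/+ (adjusted p = 0.316). Psme3, the nuclear activator PA28 gamma, stood at 41.6, 39.3 and 43.1 CPM in db/db, 52.2, 57.7 and 52.0 CPM in db/+, against 45.9, 47.5 and 53.1 CPM in WT. The highest db/db library stood below all the others. Psme3 fell by 0.39 ± 0.09 relative to db/+ (adjusted p = 0.00305) and by 0.24 ± 0.09 relative to WT (adjusted p = 0.0403). The call against WT was lost without any one db/db library, WT 2 or WT 3 (adjusted p = 0.136 without WT 3). Psme4, the activator PA200, stood at 235, 236 and 252 CPM in db/db, 196, 200 and 224 CPM in db/+, against 207, 233 and 236 CPM in WT. It rose by 0.22 ± 0.08 relative to db/+ (adjusted p = 0.0412, but between 0.051 and 0.145 without db/db 2, db/db 3, db/+ 1, db/+ 2, WT 2 or WT 3), with 0.10 against WT (adjusted p = 0.362).

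None of the 7 assembly chaperones with Psm symbols passed the test in either db/db comparison, beside 41.7% (against WT) and 40.3% (against db/+) of all tested genes. The 7 chaperones are Psmg1, Psmg2, Psmg3 and Psmg4, which build the alpha ring, and Psmd5, Psmd9 and Psmd10, which build the base. Their medians were 0.07 against WT and 0.03 against db/+. Psmd10, whose locus overlaps Atg4a, had a difference of 0.28 against WT (adjusted p = 0.235), and Psmd5 one of -0.08 against WT (adjusted p = 0.463) and -0.20 against db/+ (adjusted p = 0.0710).

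The comparison of db/+ with WT asks about a single db allele. None of the 47 proteasome genes passed edgeR's test, beside 1.43% of all tested genes (0.606% higher and 0.820% lower). Their log2 fold changes ran between -0.49 and 0.36, with SE between 0.08 and 0.26, and 4 had an unadjusted p under 0.05. The DESeq2 Wald test called 1 gene lower and limma-voom called none. That gene was Psmd11, a lid subunit, at 16.0, 18.6 and 17.9 CPM in db/+, against 20.1, 23.7 and 30.2 CPM in WT. The groups did not overlap, but the WT libraries were widely spread. Its difference was -0.49 ± 0.14 (adjusted p = 0.104 by edgeR and 0.0478 by DESeq2), and 0.0462 by edgeR without WT 1. In all 5 proteasome genes lay above WT in every db/+ library and 2 below, where the shares of all tested genes were 12.1% and 10.4%. The median log2 fold change was 0.01 over the proteasome genes and 0.02 over all tested genes.

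Levels of different genes can be compared only per length. In WT islets the highest mean CPM per kilobase of transcript were those of Psmb4 (72.9), Psma7 (56.7), Psmd6 (49.7), Psmb1 (49.7) and Psmb6 (47.1). The lowest was that of Psme2, at 3.54 CPM per kilobase, followed by Psmb9 at 3.95 and Psma5 at 5.02. Each immunoproteasome gene stood below the gene it replaces. Psmb9 had 1.71 CPM per kilobase in db/db and 3.95 in WT, beside 68.0 in db/db and 47.1 in WT for Psmb6. Psmb10 had 9.31 in db/db and 7.54 in WT, beside 43.1 in db/db and 31.5 in WT for Psmb7. Psmb8 came nearest to its counterpart, with 5.66 in db/db and 5.57 in WT, beside 12.1 in db/db and 8.51 in WT for Psmb5. Core subunits that occur in equal number in each particle thus differed more than 10-fold in RNA per length between Psmb4 and Psma5, as measured with lengths of a single transcript per gene.

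Of 11 tested genes of proteasome assembly and control not named Psm, 2 rose and 3 fell in db/db relative to WT, and 2 rose and 5 fell relative to db/+. Against WT these are shares of 18.2% and 27.3%, near the 21.8% and 19.9% of all tested genes, and against db/+ 18.2% and 45.5%, beside 20.6% and 19.7%. Pomp, the chaperone that matures the core, measured 33.8, 37.8 and 38.7 CPM in db/db, 32.3, 23.1 and 25.0 CPM in db/+, against 23.2, 27.7 and 32.7 CPM in WT. It rose by 0.40 ± 0.14 relative to WT (adjusted p = 0.0369, but between 0.0898 and 0.147 without db/db 2, db/db 3, WT 1 or WT 2), with every db/db library above every other. Uchl5, a deubiquitinase of the regulatory particle, rose by 0.48 ± 0.14 relative to WT (adjusted p = 0.0150, but 0.0647 without WT 1 and 0.0649 without WT 3). Ube3c, a ubiquitin ligase bound to the proteasome, fell by 0.29 ± 0.07 (adjusted p = 0.00298). AI314180, the older symbol of Ecpas, which encodes an adaptor of the proteasome, fell by 0.29 ± 0.07 (adjusted p = 0.00499).

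Of 8 tested genes around NRF1, the factor that raises proteasome genes when proteasome activity falls short, 3 rose and 2 fell relative to WT, and 1 rose and 4 fell relative to db/+. Against WT that is 37.5% higher and 25% lower, beside 21.8% and 19.9% of all tested genes. Against db/+ it is 12.5% higher and 50% lower, beside 20.6% and 19.7%. Nfe2l1, the gene of NRF1, stood at 246, 257 and 255 CPM in db/db, 299, 333 and 306 CPM in db/+, against 276, 317 and 268 CPM in WT. Every db/db library was lower than any other. The difference was -0.18 ± 0.08 against WT (adjusted p = 0.0854), and Nfe2l1 fell by 0.31 ± 0.08 against db/+ (adjusted p = 0.00848). Ngly1, which deglycosylates NRF1, measured 91.7, 95.9 and 103 CPM in db/db, 60.5, 53.7 and 57.1 CPM in db/+, against 53.6, 52.4 and 52.5 CPM in WT. It rose by 0.87 ± 0.08 relative to WT (adjusted p = 1.21e-06) and by 0.76 ± 0.08 relative to db/+ (adjusted p = 3.92e-06), a larger rise than that of any Psm gene. Ddi2, the protease that cuts NRF1, fell by 0.28 ± 0.08 relative to WT (adjusted p = 0.0166, and 0.0655 without db/db 2). Among the small Maf partners, Mafk rose by 0.50 ± 0.11 (adjusted p = 0.00276) and Mafg fell by 0.58 ± 0.08 (adjusted p = 6.34e-05) relative to WT. Mafk, however, fell by 0.37 ± 0.11 in db/db relative to db/+ (adjusted p = 0.0142, but 0.0584 without db/db 1 and 0.060 without db/+ 1), and rose by 0.87 ± 0.11 in db/+ relative to WT (adjusted p = 0.00285).

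Of 13 genes that make or carry ubiquitin, 3 rose and 3 fell relative to WT, and 3 rose and 4 fell relative to db/+. These are 23.1% in either direction against WT, and 23.1% and 30.8% against db/+, near the shares of all tested genes. Rad23b, which shuttles ubiquitinated proteins to the proteasome, rose by 0.33 ± 0.07 in db/db relative to WT (adjusted p = 0.00267), as did Ufd1, a cofactor of the p97 segregase, by 0.23 ± 0.08 (adjusted p = 0.0258, but between 0.062 and 0.120 without db/db 2, db/db 3, WT 1 or WT 3). Uba6, a ubiquitin-activating enzyme, fell by 0.43 ± 0.08 (adjusted p = 6.85e-04).

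Of 16 tested genes of the interferon response and class I presentation, 2 rose and 5 fell in db/db relative to WT, and none rose and 7 fell relative to db/+, with medians of -0.17 and -0.30. Against WT that is 12.5% higher and 31.25% lower, beside 21.8% and 19.9% of all tested genes. Against db/+ 43.75% fell, beside 20.6% higher and 19.7% lower among all tested genes. Stat2, a signal transducer of interferon receptors, stood at 10.2, 12.5 and 12.7 CPM in db/db, 17.3, 23.9 and 21.8 CPM in db/+, against 22.2, 24.7 and 26.1 CPM in WT, lower in all db/db libraries. It fell by 1.04 ± 0.14 relative to WT (adjusted p = 6.95e-05). Irf7, an interferon-induced transcription factor, measured 2.47, 4.34 and 3.02 CPM in db/db, 9.86, 8.77 and 9.87 CPM in db/+, against 9.28, 6.50 and 6.81 CPM in WT, and fell by 1.20 ± 0.23 relative to WT (adjusted p = 8.76e-04). The class I genes H2-D1 (0.41 ± 0.07, adjusted p = 4.97e-04) and H2-K1 (0.28 ± 0.09, adjusted p = 0.0173, but 0.0514 without db/db 1 and 0.0578 without WT 3) rose relative to WT, though these near-identical genes can share reads. Against db/+ the difference of H2-D1 was -0.11 (adjusted p = 0.245) and H2-K1 fell by 0.29 (adjusted p = 0.0160, but 0.0785 without db/db 3 and 0.0875 without db/+ 2).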

How the data were processed

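Total RNA of mouse islets was extracted with Trizol and sequenced on an Illumina HiSeq after Ribo-Zero Gold removal of ribosomal RNA, per the labels' protocols. Per the submitters' processing notes, bcl2fastq 2.20.0.422 and TopHat2 2.0.14 were used with the mm10 genome. The authors deposited raw read counts per gene symbol in 1 table. How reads were counted (program, annotation, strand) is not given in the sources used. Overlapping genes (13 of the 47 proteasome genes overlap another) and near-identical copies can share counts. A column that matches no sample (1 in all) was not used.

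Genes were kept by filterByExpr, which left 16826 of 52459 symbols. TMM factors and 1 model with a term per genotype over all 9 libraries were fitted in edgeR 4.0.16 (R 4.3.3) with robust dispersion (common coefficient of variation 0.129, with 6 residual degrees of freedom). Each of the 3 pairs of groups was tested by the two-sided quasi-likelihood F-test, adjusted by Benjamini-Hochberg over the whole table, at a threshold of 0.05. SE were derived from the fold change and F. The fits were first tested on simulated data. Values resting on few counts are limited by counting error, which the floor of 3 counts covers alone.

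Alternatives were DESeq2 1.42.0 size factors and its Wald test, library totals, other filters, limma-voom (limma 3.58.1), non-robust dispersion, only the compared groups, each library left out, removal of acinar or ribosomal RNA overlapping genes, terms for acinar markers, Y-linked counts or title letter, and a transcript length correction. Library totals without ribosomal RNA overlapping genes were chosen after seeing the data. The length of a gene is that of its transcript with the longest coding sequence, from an annotation of another mouse build, and was known for 87.2% of tested genes. Positions and promoters are from RefSeq on GRCm38.p6 (positions for all 47 genes, promoters for 40).

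The members and lists were chosen with earlier results of these data known. Named with every library are the immunoproteasome and catalytic genes and, per class, the risen and fallen gene with the smallest adjusted p against WT, and from each related list Nfe2l1 and up to 2 risen and 2 fallen genes. Others are named where a class is summarised. A gene that the rule names, and part of the strain name, are not reported here. Libraries are numbered in accession order, which pairs nothing. Figures were drawn with matplotlib 3.10.9.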

Additional observations from a re-analysis of the deposited data

How the results depend on the processing

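No paired analysis was possible because the labels give the libraries no replicate numbers. The counts that follow run over all 47 proteasome genes, so an alternative can call genes that the reported fit did not. In db/db against WT 16 genes rose, and 9 to 16 did with a single library left out, 2 with library totals, 9 with library totals without genes that overlap ribosomal RNA, 10 with an acinar term, 4 with a Y-linked term, 7 with a title letter term and 7 with the length correction. In the same comparison 3 fell, and 1 to 3 did with a library left out, 6 with library totals, 1 with the acinar term, 0 with the Y-linked term and 5 with the length correction. Against db/+, 13 genes rose, and 5 to 15 did with a library left out, 0 with library totals, 8 with library totals without genes that overlap ribosomal RNA, 2 with the Y-linked term and 0 with the title letter term. There 2 fell, and 2 to 3 did with a library left out, 7 with library totals, 4 with library totals without genes that overlap ribosomal RNA, 0 with the Y-linked term, 1 with the title letter term and 4 with the length correction. In db/+ against WT 0 genes fell, and 1 did without the low-count filter, by the DESeq2 Wald test and without WT 1 (range 0 to 1). The acinar, Y-linked and title letter terms follow genotype in part, and the title letter leaves no letter with both db/db and db/+, so these cannot be told apart from genotype. The cause of the other shifts was not tested. With library totals, 2176 of all tested genes rose and 5317 fell in db/db against WT, beside 3670 and 3348 with TMM. The length correction gave 2944 and 3630 of the 14664 genes with a known length. Of all tested genes 12.9% rose with library totals, 16.1% with the Y-linked term and 20.1% with the length correction. These are larger shares than among the 47 proteasome genes. Shares were smaller than among the proteasome genes with the acinar term (11.2%), the title letter term (12.9%) and library totals without ribosomal RNA overlap (17.6%). Against db/+ library totals gave 2011 and 5265, beside 3459 and 3314 with TMM. There 12.0% of all tested genes rose with library totals, 14.9% with the Y-linked term and 5.98% with the title letter term. With library totals without ribosomal RNA overlap 18.0% rose. Each is larger than the share among the proteasome genes. Among values of single named genes, 2834 kept their side of the threshold, 289 lost the call and 41 gained it, and 0 calls reversed direction. Values that did not pass the test could change sign and still count as kept, as those of Psmb8 and Psmb10 against WT did.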
